A study of Mus musculus with 8 samples.

Results

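The mitochondrial ribosomal protein genes were measured in livers of Cpeb4 knockout (KO) and wild-type (WT) mice. They were taken as every protein-coding gene whose symbol starts with Mrpl (large subunit) or Mrps (small subunit) in GENCODE mouse release M21. The annotation holds 78 such genes, and 72 of them are in both tables of the series, where each has an adjusted p-value. These are 72 of 21201 genes in the smaller table and 72 of 23634 genes in the larger table. Mrpl2, Mrpl17, Mrpl33, Mrpl40, Mrpl53 and Mrps34 were not analysed here. The rule used no measured value.

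The series has 8 RNA-seq libraries in 4 groups of 2: KO and WT libraries of endoplasmic reticulum purified from liver, and KO and WT libraries of total liver RNA. The labels give the genotype as Cpeb4 KO or WT, say that the animals from which the reticulum was purified had been fasted overnight, and give no strain, sex or age. They say neither which cells lack the gene nor whether replicate libraries were made from different animals. A p-value here may therefore reflect technical spread alone. Each of the 2 tables holds the authors' own KO against WT comparison of 4 libraries, and neither names the preparation it covers. The tables are therefore called smaller and larger here by their number of genes.

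Mitochondrial ribosomes translate the few mRNAs of the mitochondrial genome, which encode subunits of the respiratory chain and of ATP synthase. Their ribosomal RNAs come from that genome, while all their proteins are encoded in the nucleus, made by cytosolic ribosomes and imported. Some of the proteins have a bacterial homologue and others were gained in the mitochondrial lineage. CPEB4 binds cytoplasmic polyadenylation elements in the 3′ untranslated region (3′ UTR) of mRNAs and acts on their polyadenylation and translation. Transcript levels were measured here, not translation or protein, and in whole tissue fewer cells of a type and less RNA per cell cannot be told apart.

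Because the knocked-out protein binds U-rich elements, the places where those letters occur in these mRNAs are given first. The elements were searched as TTTTAT and TTTTAAT on the sense strand of the annotated 3′ UTR of 1 transcript a gene, in the letters of DNA. At least 1 of them was found in 34 of 72 Mrpl and Mrps genes (47.2%), against 7061 of 11725 protein-coding genes tested (60.2%). The 3′ UTRs of these genes were short, with a median of 362.5 bases against 1014 bases over all tested protein-coding genes. Among 3′ UTRs of 100 to 600 bases, 6 of 34 Mrpl and Mrps genes held an element (17.6%), against 1078 of 3519 of all genes (30.6%). Over the whole annotated 3′ UTR, of whatever length, Mrpl47 held 6, Mrps31 held 2 and Mrpl49 and Mrpl50 held 1 each, whereas Mrpl13, Mrps33 and Mrps6 held none. The sites nearest to the transcript end are shown for 3 genes with high and 2 genes with low fold changes, from the GENCODE transcripts (GRCm38, the assembly that mm10 names), 5′ to 3′, with the element in capitals.
Mrpl47, chr3:32725513-32725542, minus strand, 129 bases before the transcript end: ccaagacagatTTTTATcaatatagaataa
Mrpl32, chr13:14609432-14609461, minus strand, 1261 bases before the end: cccctgctctaTTTTATttgatggtccagg
Mrps31, chr8:22429459-22429488, plus strand, 190 bases before the end: ctaaatagaaaTTTTATcaaaattctcctg
Mrpl49, chr19:6053680-6053709, minus strand, 71 bases before the end: ttaatgcaagtTTTTATtgagctgtatata
Mrpl50, chr4:49512646-49512675, minus strand, 63 bases before the end: atgaaattcacTTTTATgtatcactttatt
In the authors' deposited tables, the 34 genes with an element had a median log2 fold change of -0.019 in the smaller table and 0.017 in the larger. The 38 genes without one had medians of -0.0011 and 0.042 in the same tables. Over all tested genes the medians with and without an element were 0.020 and -0.038 in the smaller table, and -0.0056 and -0.0060 in the larger. Transcript length moved with the deviations of several libraries, as given below, and its part in these medians was not tested. A match to these letters is a description and not a binding site.

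Values per library were needed to show the data behind each fold change. The deposited mean of a gene is the average of 4 counts, each divided by the size factor of its library, so the value of a single read in each library can be read from genes with a single read. Among genes whose mean was under 2, all 4801 in the smaller table and all 5177 in the larger equalled sums of whole numbers of 4 such steps (tolerance 1e-09). Whole reads in each library were then sought that give the deposited mean. They were found for 70 of 72 Mrpl and Mrps genes in the smaller table, all but Mrpl51 and Mrps7, and for 72 of 72 in the larger. A single set of reads fitted 52 and 34 of them, and for the others the set nearest to equal levels was kept where its ratio, and no other set's, matched the deposited fold change. That choice favours a small spread between libraries, and its part in the rebuilt values below was not tested. On simulated reads of these genes, 97.2% of sets in the smaller table and 97.9% in the larger were recovered, and none was wrong. The simulated fold changes kept the relation to the ratio by which sets were chosen, so wrong sets were largely excluded beforehand. Real genes can depart from that relation, as Mrps36 did (given below). Over all rebuilt genes, the sign matched the deposited one for 99.3% in the smaller table and 98.9% in the larger. The simulation therefore gives no error rate for the real rebuilt reads.

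The 4 libraries of a table are called the deeper and shallower KO and the deeper and shallower WT library, which ties them to no sample label. Their relative depths were 1.64 and 0.839 for KO and 0.870 and 0.839 for WT in the smaller table, and 1.24 and 0.904 for KO and 1.26 and 0.717 for WT in the larger. Which side is KO was read from Cpeb4, whose log2 fold change in the authors' deposited tables was -1.10 ± 0.13 (SE, adjusted p = 2.30e-12, DESeq2 Wald test) in the smaller table. It was -1.16 ± 0.11 (adjusted p = 3.18e-24) in the larger, with the smallest p of either table. The rebuilt normalised counts of Cpeb4 in the smaller table were 193 and 225 in KO against 689 and 634 in WT. Hepatocyte transcripts were abundant: all 9 markers with an adjusted p, albumin among them, had means of at least 23986 in the smaller and 34570 in the larger table. The 4 globin genes, which mark red cells, had log2 fold changes of -0.42 to -0.36 in the smaller table and -0.30 to -0.29 in the larger of the authors' deposited tables, and none passed the adjusted test, while all 4 had an unadjusted p under 0.05 in each. Their part in the values below was not tested.

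None of the 72 mitochondrial ribosomal protein mRNAs passed the test for a change in KO livers in either table. With an adjusted p under 0.05 in the authors' Wald test (DESeq2), 0 of 72 were called in the smaller table, where 0.266% of 11661 genes were, and 0 of 72 in the larger, where 0.296% of 14180 genes were. At an unadjusted p under 0.05 the count was again 0 of 72 in each, against 4.11% of all genes in the smaller table and 3.62% in the larger. The lowest unadjusted p of these genes in the authors' deposited tables was 0.0970 for Mrpl32 in the smaller and 0.0721 for Mrpl13 in the larger. A limma fit to the rebuilt values (log2 of value + 0.5) also called 0 genes after adjustment, with 1 at an unadjusted p under 0.05 in the smaller table (Mrpl32) and 4 in the larger (Mrpl13, Mrpl47, Mrpl50 and Mrps33). That share of all genes was 7.04% in the smaller table and 7.26% in the larger, and limma's adjusted calls were 0.00962% and 0.0469% of all genes.

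The size of the changes in these values was described as follows. In the authors' deposited tables, the SE of these log2 fold changes had a median of 0.12 in the smaller table and 0.099 in the larger. Every 95% interval lay within -0.44 and 0.45 in the smaller table and within -0.36 and 0.41 in the larger. Among genes in the same range of means, the smallest absolute log2 fold change called in the authors' deposited tables was 0.43 in the smaller and 0.34 in the larger. The largest absolute value of an Mrpl or Mrps gene there was 0.20 and 0.19, and 8.55% and 6.0% of genes in that range of means lay beyond it. The median absolute value of the Mrpl and Mrps genes was 0.044 in the smaller table and 0.054 in the larger. Over all genes in that range of means it was 0.075 and 0.057. These deposited fold changes are moderated toward 0. The intervals were made from the moderated values, so they do not bound the unmoderated change. Without moderation, the ratio of KO to WT means lay within 1.2-fold for 67 of 70 genes in the smaller table and 70 of 72 in the larger, against 81.0% and 84.8% of all rebuilt genes, which were not matched for mean. The exceptions were Mrpl32, Mrpl47 and Mrps36 in the smaller table and Mrpl47 and Mrps36 in the larger. The rebuilt reads of Mrps36 are uncertain, as given below.

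**Figure D1:**
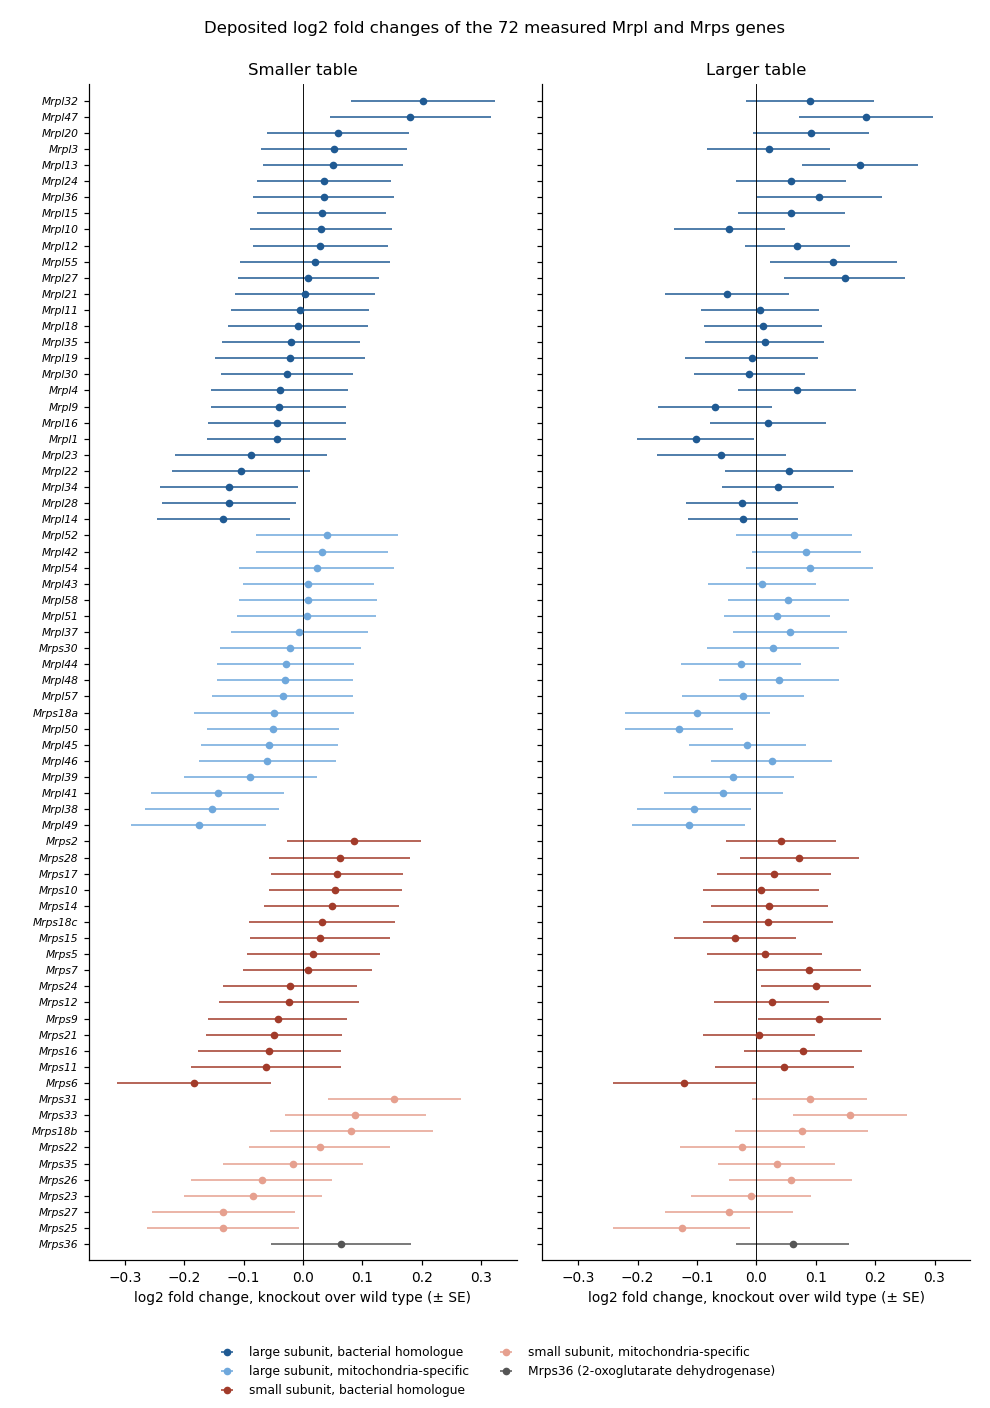
Log2 fold change, KO over WT, of the 72 measured Mrpl and Mrps genes in the smaller and larger of the authors' deposited tables; points are genes, bars ± 1 SE, colours the subunit and origin of the protein. The values lie between -0.18 and 0.20 in the smaller table and between -0.13 and 0.19 in the larger, and the bars of most genes cross 0.

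The share of genes above 0 differed between the tables, and that share was not tested. In the smaller of the authors' deposited tables, 33 of 72 genes had a log2 fold change above 0 (45.8%, against 50.3% of all genes tested), and the median was -0.012 against 0.00085 over all genes. In the larger, 48 of 72 were above 0 (66.7%, against 49.6%), with a median of 0.026 against -0.00083. By subunit, 19 of 46 large-subunit genes and 13 of 25 small-subunit genes were above 0 in the smaller table, against 28 of 46 and 19 of 25 in the larger. The 16 small-subunit genes with a bacterial homologue had 9 above 0 in the smaller table and 14 in the larger, with medians of 0.013 and 0.028 in the authors' deposited tables. The 19 large-subunit genes specific to mitochondria had 6 and 10 above 0.

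Large-subunit proteins gave the highest value of each table. Mrpl47, a protein near the exit of the peptide tunnel, had 922 and 725 normalised counts in KO against 563 and 798 in WT in the smaller table, and 552 and 507 in KO against 451 and 429 in WT in the larger. The libraries of the genotypes overlapped in the smaller table and stood apart in the larger. Its log2 fold change in the authors' deposited tables was 0.18 ± 0.14 (SE, unadjusted p = 0.181) in the smaller and 0.19 ± 0.11 (unadjusted p = 0.101) in the larger.

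Mrpl32, a zinc-binding protein of the large subunit that a mitochondrial protease matures, had 1149 and 1124 normalised counts in KO against 883 and 1006 in WT in the smaller table. In the larger it had 673 and 642 in KO against 604 and 605 in WT. Both KO libraries were above both WT libraries in both tables. The log2 fold change in the authors' deposited tables was 0.20 ± 0.12 in the smaller (SE, the highest of the 72) and 0.09 ± 0.11 in the larger, and neither passed the test.

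Mrpl13 had 3598 and 2926 normalised counts in KO against 3020 and 3225 in WT in the smaller table, where the genotypes overlapped. In the larger table it had 1957 and 1750 in KO against 1581 and 1611 in WT, with no overlap. The log2 fold change in the authors' deposited tables was 0.05 ± 0.12 (SE) in the smaller and 0.17 ± 0.10 in the larger. The annotated transcript of Mrpl13 shares 25.1% of its 31-base words with Mtbp, which overlaps it. Mrpl27, a protein near the catalytic centre, and Mrpl55 had 0.0091 and 0.02 in the smaller and 0.15 and 0.13 in the larger of the authors' deposited tables, each within 2 SE of 0. Mrpl27 shares 54.0% of its words with other annotated genes.

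At the low end of the large subunit, Mrpl49, specific to mitochondria, had 1750 and 1802 normalised counts in KO against 2010 and 2126 in WT in the smaller table, and 1349 and 1344 in KO against 1510 and 1457 in WT in the larger. Both KO libraries were below both WT libraries in both tables. The log2 fold change in the authors' deposited tables was -0.18 ± 0.11 (SE, unadjusted p = 0.122) in the smaller and -0.11 ± 0.10 (unadjusted p = 0.233) in the larger. Mrpl38 and Mrpl41, also specific to mitochondria, had both KO libraries below both WT libraries in each table, with log2 fold changes of -0.15 and -0.14 in the smaller and -0.10 and -0.06 in the larger of the authors' deposited tables. Mrpl41 shares 25.1% of its words with another annotated gene, Gm6434. Mrpl50 had 2811 and 3042 normalised counts in KO against 3121 and 2986 in WT in the smaller table, which overlap, and 2060 and 2171 in KO against 2373 and 2339 in WT in the larger, which do not.

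In the small subunit, Mrps31, specific to mitochondria, had 2459 and 2425 normalised counts in KO against 2194 and 2088 in WT in the smaller table, and 1777 and 1601 in KO against 1553 and 1576 in WT in the larger. Both KO libraries were above both WT libraries in each table, and the log2 fold change in the authors' deposited tables was 0.15 ± 0.11 (SE) in the smaller and 0.09 ± 0.10 in the larger. Mrps33 had 4615 and 3648 normalised counts in KO against 3728 and 3916 in WT in the smaller table, with overlap, and 1812 and 1669 in KO against 1526 and 1519 in WT in the larger, with none. Its log2 fold change in the authors' deposited tables was 0.09 ± 0.12 (SE) in the smaller and 0.16 ± 0.10 in the larger. Mrps2, which has a bacterial homologue, had 0.09 ± 0.11 (SE) in the smaller of the authors' deposited tables and 0.04 ± 0.09 in the larger.

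Mrps6, which has a bacterial homologue, gave the lowest value of the smaller table. It had 489 and 470 normalised counts in KO against 555 and 595 in WT there, with no overlap, and 248 and 267 in KO against 328 and 263 in WT in the larger, with overlap. The log2 fold change in the authors' deposited tables was -0.18 ± 0.13 (SE) in the smaller and -0.12 ± 0.12 in the larger. Mrps6 shares 33.8% of its words with Slc5a3, which overlaps it, and a further annotated gene. Mrps25, specific to mitochondria, had -0.13 ± 0.13 (SE) in the smaller and -0.13 ± 0.11 in the larger of the authors' deposited tables, and its reads are the least certain of these, since 74.6% of its words occur in Nr2c2, which overlaps it, or a further annotated gene.

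**Figure D2:**
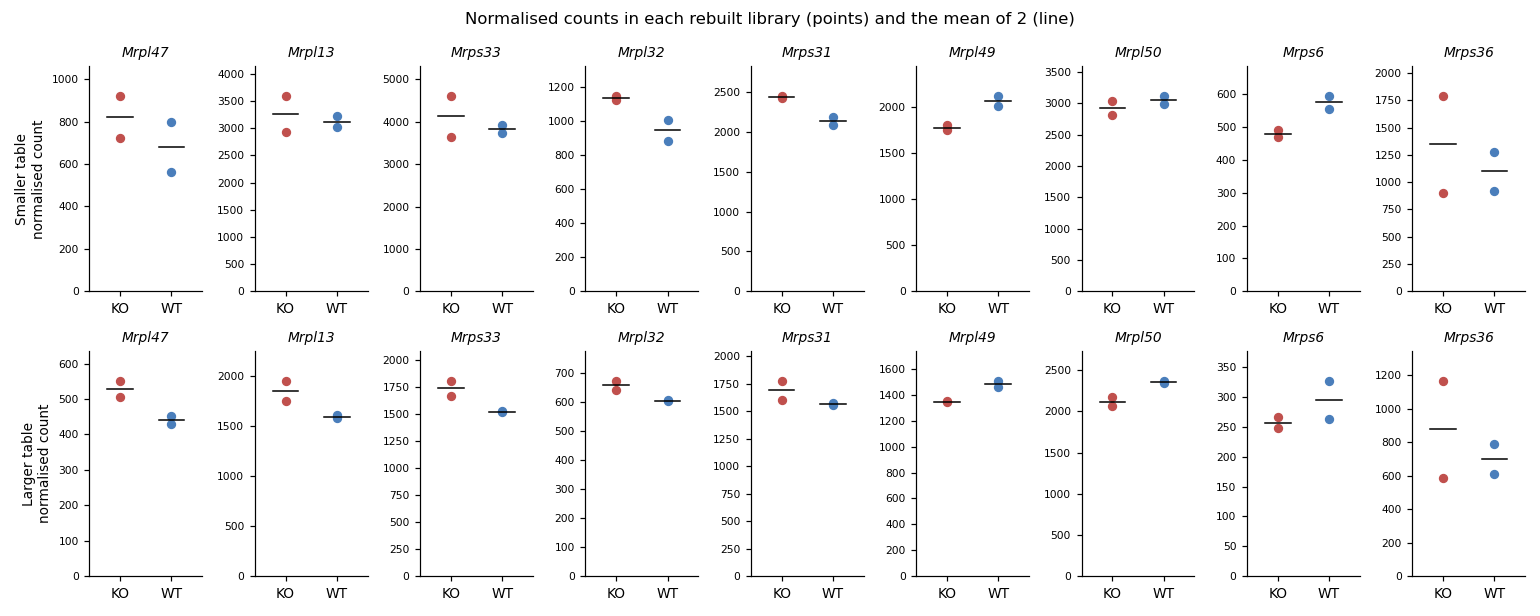
Rebuilt normalised counts of 9 genes in the smaller table (upper row) and the larger (lower row), KO left and WT right; each point is 1 library, the line is the mean of 2, and each axis starts at 0. Mrpl32 and Mrps31 have both KO points above both WT points in each row and Mrpl49 has both below. The KO points of Mrps36, whose rebuilt reads are uncertain, lie far apart.

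Libraries that stood apart by genotype were counted beside the same count over all rebuilt genes. Both KO libraries were above both WT libraries for 5 of 70 genes in the smaller table (background 18.7%) and for 24 of 72 in the larger (17.9%). Both KO libraries were below for 13 of 70 in the smaller (20.6%) and for 10 of 72 in the larger (19.5%). Mrpl32 and Mrps31 were above in both tables, and Mrpl38, Mrpl41, Mrpl49 and Mrps27 were below in both, so 2.86% and 5.71% of the 70 genes kept their side, against 7.98% and 9.41% of 9931 genes.

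Libraries of the same genotype also differed from each other across these genes. In the smaller table the deeper KO library was the highest of 4 for 36 of 70 genes, with a median of 0.050 on the log2 scale over each gene's mean, and the shallower KO library was the lowest for 42 of 70, with a median of -0.083. The medians in the deeper and shallower WT libraries were -0.0062 and 0.032. In the larger table the deeper KO library was the highest for 34 of 72, with a median of 0.029, and the deeper WT library was the lowest for 28 of 72, with a median of -0.019. Without the deeper KO library, 18 of 70 genes had a KO over WT ratio above 1 in the smaller table (median log2 ratio -0.099) and 42 of 72 in the larger (0.015). Without the shallower KO library, 46 of 70 were above 1 in the smaller table (0.035) and 50 of 72 in the larger (0.037).

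Transcript length moved with the deviations of the KO libraries, and of the shallower WT library of the smaller table, across all genes. In the smaller table Spearman rho was -0.11 and 0.28 in the deeper and shallower KO library, and -0.033 and -0.16 in the WT libraries. In the larger it was -0.16 and 0.14 in the KO libraries and 0.035 and 0.029 in the WT libraries. Mrpl and Mrps transcripts were short, with a median of 1335.5 bases against 2968.5 bases over 10466 protein-coding genes tested in both tables. Over all genes with a transcript under 1000 bases, the median deviation was 0.060 in the deeper and -0.13 in the shallower KO library of the smaller table, and 0.050 and -0.028 in the same libraries of the larger. Over all longer transcripts these medians were -0.028 and 0.0091 in the smaller table, and -0.022 and 0.0025 in the larger. In the deeper and shallower WT libraries, all genes under 1000 bases had medians of -0.017 and 0.052 in the smaller table, and -0.013 and -0.016 in the larger. Among the Mrpl and Mrps genes, the 22 with a transcript under 1000 bases had medians of 0.098 and -0.14 in the deeper and shallower KO library of the smaller table, against 0.037 and -0.056 for the 48 longer ones. In the larger table the 22 short ones had 0.064 and -0.029 in these libraries, against 0.022 and 0.014 for the 50 longer ones. The part of transcript length in the fold changes was not tested.

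**Figure D3:**
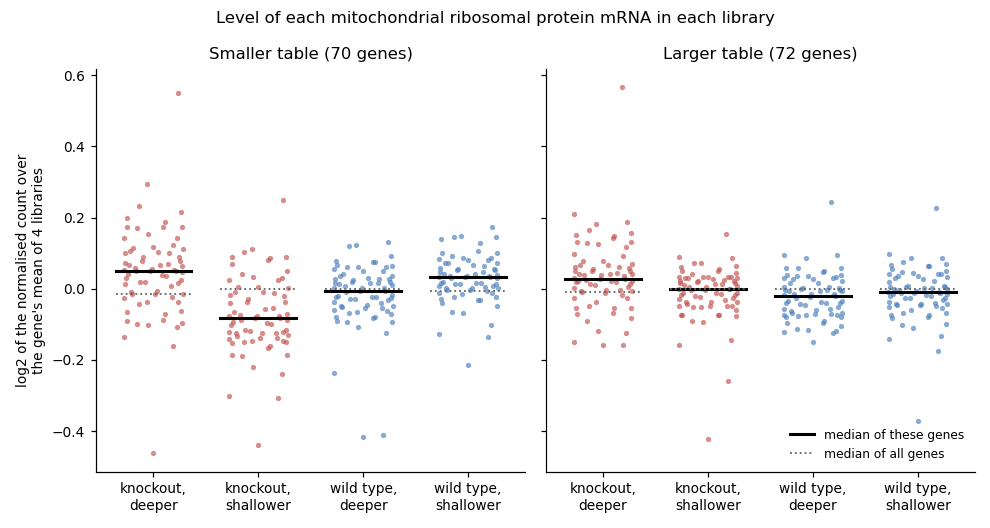
Log2 of each gene's normalised count over its mean of 4 libraries, by library, in the smaller table (70 Mrpl and Mrps genes) and the larger (72); black lines are medians of these genes and dotted lines medians of all genes. In the smaller table the median is 0.050 in the deeper KO library and -0.083 in the shallower, so the KO libraries lie on both sides of the WT libraries.

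Several genes with these names have a role of their own. Mrps36 is named after the small subunit but is known as a component of the 2-oxoglutarate dehydrogenase complex, which anchors its subunits. Its rebuilt values varied most between libraries, with 1792 and 902 normalised counts in KO against 921 and 1279 in WT in the smaller table, and 1168 and 588 in KO against 787 and 609 in WT in the larger. The KO libraries held the highest and the lowest value in each table, and the highest library exceeded the lowest 1.99-fold in each, against a median of 1.16-fold in the smaller and 1.10-fold in the larger. The log2 fold change in the authors' deposited tables was 0.06 ± 0.12 (SE) in the smaller and 0.06 ± 0.10 in the larger. The unmoderated log2 ratio of its rebuilt values was 0.29 in the smaller and 0.33 in the larger. Over the Mrpl and Mrps genes the deposited value was a median of 0.78 and 0.80 of the unmoderated one, so the rebuilt reads of Mrps36 are uncertain. Mrps36 shares 41.6% of its words with other annotated genes, Mrps36-ps1 and Mrps36-ps2 among them, so its reads may be divided between copies.

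None of the other genes with a distinct role was called. Mrpl12, the stalk protein that recruits translation factors and is also known to bind the mitochondrial RNA polymerase, had 2363 and 2322 normalised counts in KO against 2414 and 2154 in WT in the smaller table, and 2740 and 2706 in KO against 2573 and 2573 in WT in the larger. Its libraries overlapped in the smaller table, and both KO libraries were above both WT libraries in the larger. Mrpl44, which has a ribonuclease III-like fold, Mrpl58, a peptidyl-tRNA hydrolase built into the ribosome, and Mrps12, at the decoding centre, had overlapping genotypes in both tables. Their log2 fold changes in the authors' deposited tables were -0.03, 0.0086 and -0.02 in the smaller and -0.03, 0.05 and 0.03 in the larger. Mrps30, which despite its name sits in the large subunit, had -0.02 ± 0.12 (SE) in the smaller and 0.03 ± 0.11 in the larger of the authors' deposited tables.

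Mrps18a, Mrps18b and Mrps18c are paralogues related to a single bacterial protein, of which Mrps18a sits in the large subunit and the others in the small. Mrps18a was the least abundant of all 72 by mean count, with 60.2 and 98.9 normalised counts in KO against 83.9 and 89.4 in WT in the smaller table, and 167 and 158 in KO against 170.1 and 205 in WT in the larger. Mrps18b had 339 and 352 normalised counts in KO against 346 and 285 in WT in the smaller table, and 624 and 543 in KO against 526 and 559 in WT in the larger. Mrps18c had 1509 and 1207 normalised counts in KO against 1324 and 1317 in WT in the smaller table, and 608 and 588 in KO against 564 and 612 in WT in the larger. The genotypes overlapped in 5 of these 6 comparisons, and Mrps18a in the larger table had both KO libraries below both WT libraries. Mrps18b shares 64.3% and Mrps18c 35.5% of their words with other annotated genes.

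Levels between genes were compared as the mean normalised count per kb of transcript. The median of the 72 genes was 1280 per kb in the smaller table and 910 per kb in the larger, at percentile 84.4 and 82.3 of tested protein-coding genes, and 69 of 72 and 68 of 72 were above the median gene. Among themselves they spanned 10.2-fold in the smaller table and 9.71-fold in the larger between the 10th and 90th percentile. Mrps21 and Mrpl52 were the highest in both tables, at 5800 and 5568 per kb in the smaller and 3294 and 3072 per kb in the larger, followed by Mrpl27 at 4980 per kb in the smaller and Mrpl42 at 2923 per kb in the larger. The lowest were Mrps18a, Mrpl19 and Mrps25 in the smaller table, at 94.0, 125 and 163 per kb, and Mrps25, Mrpl19 and Mrpl47 in the larger, at 89.3, 98.1 and 144 per kb. The lengths are of 1 annotated transcript a gene, and Mrps25 has a long one of 6073 bases. Mrpl27, Mrpl42 and Mrpl19 share 54.0%, 28.6% and 41.3% of their words with other annotated genes, so their levels are less certain.

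**Figure D4:**
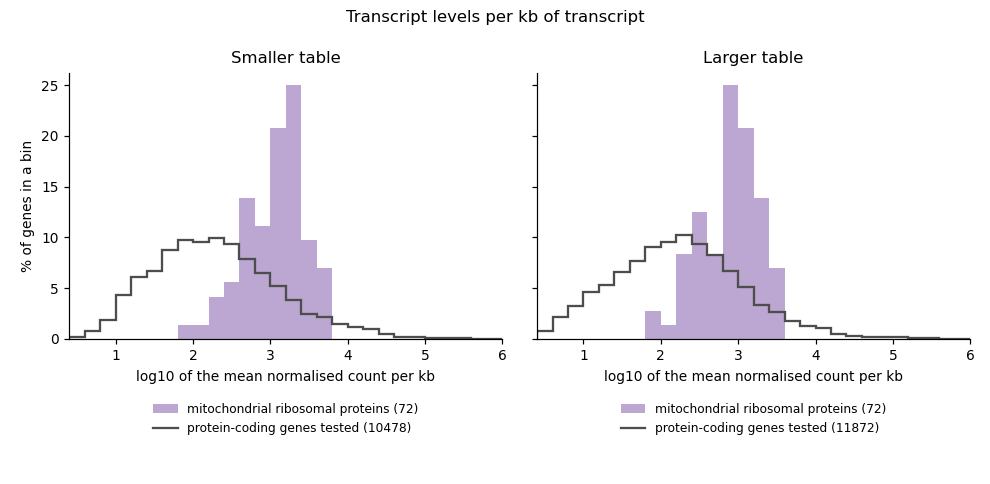
Share of the 72 Mrpl and Mrps genes (filled) and of all tested protein-coding genes (line) in bins of the mean normalised count per kb of transcript, on a log10 axis, in the smaller and larger table. The Mrpl and Mrps genes lie mostly above the middle of all genes, with medians of 1280 per kb in the smaller table and 910 per kb in the larger.

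The tables were normalised separately, so their levels were set side by side only relative to the median gene. Relative to the median gene these mRNAs were more abundant in the smaller table. The ratio of the smaller to the larger table's mean had a median of 1.55 (0.63 on the log2 scale, against -0.25 over all 11604 genes tested in both), and 69 of 72 lay above the median gene (background 50.0%). The exceptions were Mrpl10, a protein of the stalk base, and Mrps18a and Mrps18b, at -0.12, -0.82 and -0.51 on the log2 scale relative to the median gene. The KO effect itself was compared between tables with a z test of the smaller minus the larger table's log2 fold change. After adjustment 0 of 72 genes differed (0.0172% of 11604 did), and 0 did at an unadjusted p under 0.05 (0.138% did). The lowest unadjusted p of this z test was 0.283, for Mrpl34. Over all genes the z values had an SD of 0.535, less than that of a standard normal, so the test was conservative. It cannot show that the KO effect is alike in both tables. With z values divided by their SD, 0 of these genes were called after adjustment. The 5 genes with the largest z had log2 fold changes in the authors' deposited tables of -0.12 in the smaller and 0.04 in the larger for Mrpl34, and -0.10 and 0.06 for Mrpl22, a tunnel protein. They were -0.04 and 0.11 for Mrps9, 0.0091 and 0.15 for Mrpl27, and -0.06 and 0.08 for Mrps16 in the same order of the authors' deposited tables. Of these, Mrpl22 shares 43.2% and Mrpl27 54.0% of their words with other annotated genes. The signs were positive in both tables for 29 genes, negative in both for 20, negative in the smaller and positive in the larger for 19, and the reverse for 4.

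The promoters were described from RefSeq (GRCm38.p6, 250 bases before to 50 after the start), which held 64 of the 72 genes. The 3 motifs of factors known to drive nuclear genes for mitochondria were searched on both strands, and a match that reads the same on both strands was counted once. The core of the NRF1 motif was found for 12 of 64 genes (18.8%) against 11.3% of 9384 tested protein-coding genes. CCGGAAGT, the core bound by GABP and other ETS factors, was found for 11 of 64 (17.2% against 9.12%), and AAGATGGCG, the core of the YY1 motif, for 8 of 64 (12.5% against 3.53%). By GENCODE gene starts, another protein-coding gene starts head to head within 1000 bases, or overlaps the start by under 300 bases, for 20 of the 72 genes (27.8%), against 13.0% of 11884 tested protein-coding genes. Mrps11 and Mrpl46 are not in that count, since their GENCODE genes overlap further. The RefSeq starts of Mrps11, a small-subunit protein with a bacterial homologue, and Mrpl46, a large-subunit protein specific to mitochondria, lie 42 bases apart on opposite strands. The window of Mrps11 is shown on its own strand, 5′ to 3′, with the YY1 core, here on the other strand, in capitals. That core lies outside the window of Mrpl46, which held none.
Mrps11, chr7:78782881-78783180, plus strand: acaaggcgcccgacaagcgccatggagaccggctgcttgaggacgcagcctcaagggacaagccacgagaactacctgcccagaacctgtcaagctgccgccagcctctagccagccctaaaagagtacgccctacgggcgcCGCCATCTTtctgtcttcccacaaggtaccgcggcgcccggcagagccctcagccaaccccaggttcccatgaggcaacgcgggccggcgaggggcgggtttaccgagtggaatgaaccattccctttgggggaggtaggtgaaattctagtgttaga
Mrps11 had 625 and 594 normalised counts in KO against 636 and 658 in WT in the smaller table, and 386 and 457 in KO against 401 and 399 in WT in the larger. Mrpl46 had 1710 and 1582 normalised counts in KO against 1757 and 1715 in WT in the smaller table, and 918 and 953 in KO against 911 and 916 in WT in the larger. Both genes had both KO libraries below both WT libraries in the smaller table, and neither was called. The annotated genes overlap at their starts, so reads from the shared stretch cannot be assigned without strand.

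Genes that work beside the mitochondrial ribosome were read from lists made for this purpose. Over all genes tested, 50.3% in the smaller table and 49.6% in the larger were above 0, and 0.266% and 0.296% were called. Of 5 mitoribosomal proteins under other names (Dap3, Ptcd3, Aurkaip1, Chchd1 and Gadd45gip1), 0 were called in either table by the Wald test (DESeq2) or by limma, 0 had an unadjusted Wald p under 0.05, and 2 were above 0 in each. Gadd45gip1, also known to regulate the cell cycle, had 420 and 613 normalised counts in KO against 761 and 496 in WT in the smaller table, and 494 and 685 in KO against 483 and 746 in WT in the larger, so its libraries varied more within than between genotypes in both. Of 14 translation factors, 0 were called, with 7 above 0 in the smaller table and 9 in the larger, among them the elongation factors Tufm, at -0.16 ± 0.11 (SE) and -0.04 ± 0.09 in the smaller and larger of the authors' deposited tables, and Gfm1, at 0.09 ± 0.11 and 0.03 ± 0.09. Of 22 genes for assembly and rRNA modification, 0 were called, with 7 above 0 in the smaller table and 6 in the larger. Of the genes for aminoacyl-tRNA synthesis, 0 of 18 were called in the smaller table and 0 of 19 in the larger, with 7 and 9 above 0. None of these 3 lists had a gene called by limma or with an unadjusted Wald p under 0.05 in either table. Mettl15, Aars2 and Tars2 had an unadjusted limma p under 0.05 in the smaller table (7.04% of all genes did). There, both KO libraries were below both WT libraries for 12 of 22 assembly genes and 9 of 17 aminoacyl-tRNA genes (background 20.6%). They were above for 3 and 2 (18.7%). In the larger they were below for 5 of 22 and 6 of 18 (19.5%), and above for 2 and 2 (17.9%). These counts were not tested. The RNAs of the mitochondrial genome are in neither table.

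Of 16 regulators of mitochondrial transcription and biogenesis, 1 passed the test in each table, against 0.266% of all genes in the smaller and 0.296% in the larger. Ppargc1a, the coactivator known to raise mitochondrial biogenesis and to rise in fasted liver, had 646 and 540 normalised counts in KO against 310 and 275 in WT in the smaller table, and 786 and 640 in KO against 384 and 454 in WT in the larger. Its log2 fold change in the authors' deposited tables was 0.67 ± 0.13 (SE, adjusted p = 0.000667, DESeq2 Wald test) in the smaller and 0.51 ± 0.12 (adjusted p = 0.00648) in the larger. On the rebuilt values limma did not call it, and the lowest limma adjusted p of these 16 genes was 0.246 in the smaller table and 0.193 in the larger. Myc did not pass, at 0.41 ± 0.14 (SE, unadjusted Wald p = 0.00301) in the smaller and 0.43 ± 0.12 (unadjusted p = 0.000294, adjusted p = 0.0817) in the larger of the authors' deposited tables. It had 130 and 166 normalised counts in KO against 81.6 and 63.2 in WT in the smaller table. In the larger it had 172 and 292 in KO against 88.2 and 121 in WT. The factors that bind the motifs above did not pass: in the authors' deposited tables Nrf1 had -0.10 ± 0.14 (SE) in the smaller and -0.01 ± 0.12 in the larger, Yy1 had 0.06 ± 0.12 and -0.02 ± 0.09, and Gabpa had 0.28 ± 0.12 (unadjusted p = 0.0209) and 0.13 ± 0.09. Tfam, which packages mitochondrial DNA and starts its transcription, had 0.04 ± 0.12 (SE) in the smaller and -0.03 ± 0.10 in the larger of the authors' deposited tables.

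**Figure D5:**
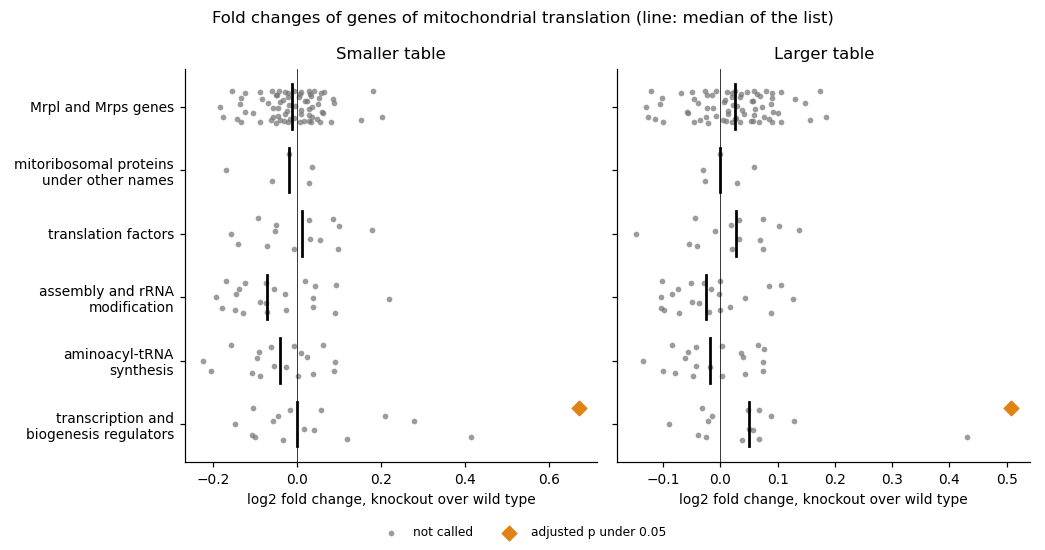
Log2 fold change, KO over WT, in the smaller and larger of the authors' deposited tables for the Mrpl and Mrps genes and 5 lists of related genes; each point is a gene, the black line the median of its list and the diamond an adjusted p under 0.05. Only Ppargc1a is called, at 0.67 in the smaller table and 0.51 in the larger.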

How the data were processed

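Liver RNA of Cpeb4 KO and WT mice was sequenced on Illumina instruments. Reads were aligned with STAR 2.3.0e to mm10 and compared with DESeq2 1.6.3, per the submitters' processing notes. Whether counting used strand is not stated by them. The 2 deposited tables hold, per the file headers, a mean normalised signal per gene (counts over size factors, averaged over libraries), a log2 fold change with its SE, the score of a Wald test, and its p-value before and after adjustment, all computed by the authors. Genes with low means carry no adjusted p-value: the lowest mean with one was 31.9 in the smaller and 17.4 in the larger table.

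Ensembl identifiers were matched to GENCODE M21 (21080 of 21201 and 23484 of 23634). Reads per library were rebuilt from the deposited means as whole numbers. Where several sets fitted, the set nearest to equal levels was kept if 0.8 times its log2 ratio, and no other set's, lay within 0.03 of the deposited log2 fold change, so that fold changes from those genes are not independent of the deposited ones. This gave 89.1% of genes tested in the smaller and 90.2% in the larger table. Total counts per sample were not analysed here, so depth is relative. Rebuilt values were fitted with limma 3.58.1 in R 4.3.3 on log2 (value + 0.5); all else used Python 3.11.15. Sequence sharing was the percentage of a gene's 31-base words found in another gene.

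The genes named were the 5 highest and 5 lowest by log2 fold change in each table, the 5 with the largest z between tables, the 3 highest and 3 lowest per kb, and genes with a role of their own. The genes and lists were chosen with earlier results of these data known. Genes shown beyond that rule (Mrpl46, Mrps11, Mrps27, Mrpl10 and those of the lists) were chosen after their values were seen. Alternatives were other filters on means, centring, unmoderated ratios, limma, leaving out each library, and leaving out genes that share over 25% of their words.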

Additional observations from a re-analysis of the deposited data

Results flagged for a closer look

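Mrpl34 and Mrpl46 had both KO libraries below both WT libraries in the smaller table and above them in the larger, which is why they are given here. In the larger table the lower KO library of Mrpl46 lay only just above the higher WT library, by the counts given with its promoter. In the authors' deposited tables the log2 fold change of the smaller minus that of the larger was -0.16 for Mrpl34 and -0.086 for Mrpl46. The z test of that difference, which was conservative as given above, did not pass for either gene. Its unadjusted p was 0.283 for Mrpl34 and 0.574 for Mrpl46. This pattern was seen in 0.836% of all genes rebuilt in both, against 2 of 70 Mrpl and Mrps genes (2.86%).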

How the results depend on the processing

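The direction in the smaller table depended on single KO libraries. By the unmoderated ratio, 31 of 70 genes were above 0 with all 4 libraries (median log2 ratio -0.025). Without the deeper KO library 18 were (-0.099), and without the shallower KO library 46 were (0.035), where the sign of the median turned; the cause was not tested. In the other alternatives of both tables the median kept its sign. Leaving out each library in turn gave 18 to 46 genes above 0 and medians of -0.099 to 0.035 in the smaller table, and 42 to 50 genes and medians of 0.015 to 0.037 in the larger. No alternative called an Mrpl or Mrps gene in either table or between the tables. No paired analysis was possible because the tables name no samples, so the rebuilt libraries cannot be tied to the replicate numbers in the sample labels. The preparation behind each table is not given in the files, and 2 libraries a genotype limit the size of change that could be called.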
